A study of Brassica carinata with 12 samples.

Results

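In synthetic Brassica carinata, a mustard that joins the B genome of B. nigra with the C genome of B. oleracea, 79 genes were close to silent in anthers at meiosis and abundant at mitosis, in a haploid and in a tetraploid form alike. They were chosen from the 97149 genes of the deposited count table by their level in CPM, a gene's count scaled to the total of its library. A member had at least 100 CPM in each of the 6 libraries at mitosis and at most 1 CPM in each of the 6 libraries at meiosis. Of 90 genes that met both limits, 5 without a chromosome in their ID, 2 on chromosome C03 and 4 in a run on B01 were left out, as the selection prescribed. The rise from meiosis to mitosis therefore defined these genes and is not tested here. The forms were not compared in the selection, although it held both above the same minimum at mitosis.

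Anthers were sampled in 4 groups of 3 libraries. The first was the haploid at mitosis (gametogenesis, genotype BC, whose mother was B. oleracea var. alboglabra and whose father was B. nigra). The second was the tetraploid at mitosis (genotype BBCC, the same cross taken through ovule culture and colchicine). The other 2 groups were the haploid and the tetraploid at meiosis (sporogenesis). Total counts ran from 15769687 to 16793767 per library. The labels call the meiosis tissue young anther, the extraction protocol speaks of floral buds, and nothing in them ties the libraries of a group to separate plants, so the spread behind each p-value is that of libraries and may be purely technical.

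In a flowering plant's anther, meiosis gives spores, and each spore then divides by mitosis into a large vegetative cell, which later grows the pollen tube, and a small generative cell, which gives the sperm. Transcript populations of anthers change strongly over this time, because maturing pollen accumulates large amounts of a limited set of messages. A haploid plant has no homologous partner for its chromosomes to pair with at meiosis. The files pair no gene ID with a gene name or function, so the members are described by level, position and length, and the labelled tissue could not be checked against marker genes. Anthers were sequenced in bulk, so fewer cells of a type and less RNA per cell cannot be told apart.

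At mitosis the 79 genes together took a smaller part of the transcript pool in the haploid than in the tetraploid. They held 3.08%, 3.08% and 3.18% of all counts in the haploid libraries, against 5.72%, 5.91% and 5.87% in the tetraploid libraries. The lowest tetraploid library lay well above the highest haploid library, and the means were 3.11% ± 0.0551 (SD, n = 3) in the haploid and 5.84% ± 0.0984 (SD, n = 3) in the tetraploid. Among the 100 most abundant genes of a library, 14, 15 and 14 were members in the haploid, against 35 in each tetraploid library. The member that stood highest ranked between 30 and 37 in the haploid libraries and between 12 and 14 in the tetraploid libraries.

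Most of this difference lay in 31 members, which made up -2.29 of the -2.72 percentage points between the means (haploid minus tetraploid). When the members were ordered by their fold change of haploid over tetraploid at mitosis (log2 scale, fitted with edgeR), none lay between -1.57 and -1.27. Wider gaps lay from 0.57 to 0.95 and from 1.04 to 1.46, near the upper end, with 3 and 1 members above them. The 31 members below the gap from -1.57 to -1.27 ranged from -2.54 to -1.57, with a median of -2.18. At that median, the level in the haploid was 0.220 of that in the tetraploid. The other 48 members ranged from -1.27 to 1.46 around a median of -0.03. The line between them, at -1.5, was drawn after the values were seen. It is 1 of several possible divisions and is used only for description. The 31 were picked by their low fold change, so their lower share of counts in the haploid follows from the line. Over all 51860 genes tested, 9.09% lay below it.

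**Figure D1:**
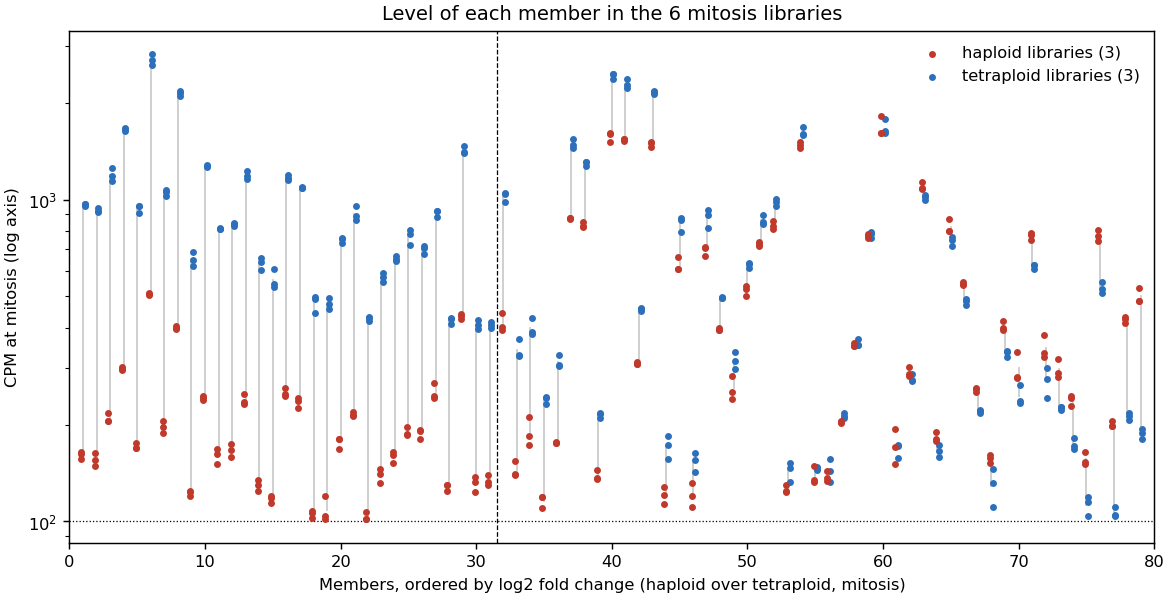
Level of each of the 79 members at mitosis, in CPM on a log axis, with 1 point per library (haploid red, tetraploid blue) and a grey line between the means; members are ordered by log2 fold change of haploid over tetraploid, the dashed line marks -1.5 and the dotted line the minimum of 100 CPM. To the left of the dashed line, 31 members have haploid points far below their tetraploid points, and to the right the points of the forms lie closer together.

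The 31 members with the large deficit held 0.623%, 0.614% and 0.632% of counts in the haploid libraries, against 2.85%, 2.96% and 2.92% in the tetraploid libraries. Summed, they stood at 0.214 of the tetraploid share in the haploid. The other 48 members held 2.46%, 2.47% and 2.55% in the haploid libraries, against 2.88%, 2.95% and 2.95% in the tetraploid libraries. This sum was also lower in every haploid library, at 0.851 of the tetraploid share. Of the 100 most abundant genes in each tetraploid library, 20 belonged to the 31, and in the haploid libraries 0 did.

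**Figure D2:**
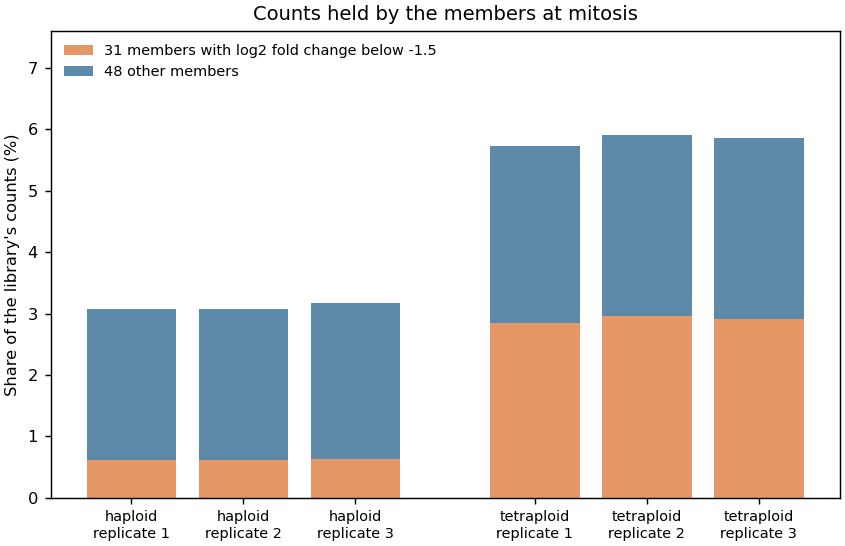
Share of each mitosis library's counts (%, bars starting at 0) held by the 31 members with a log2 fold change below -1.5 (orange) and by the 48 other members (blue). The orange part is 0.623% ± 0.00898 (SD, n = 3) in the haploid and 2.91% ± 0.0581 (SD, n = 3) in the tetraploid, while the blue part is 2.49% ± 0.0473 in the haploid and 2.93% ± 0.0426 in the tetraploid.

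Each gene was then tested between haploid and tetraploid anthers at mitosis with edgeR's quasi-likelihood test, fitted over all 12 libraries, with Benjamini-Hochberg adjustment over the 51860 genes tested and a call at an adjusted p under 0.05. All 79 members were tested. In the haploid 17 were called higher and 54 lower, and 8 were not called. Over all genes tested, 23.3% were called higher and 24.4% lower, and their median log2 fold change was 0.02, against -0.58 for the members. Beside all genes tested, the count of members called higher in this fit is near the background, and the count called lower is above it. Of 688 other genes that the selection admits by ID, with at least 100 CPM in each mitosis library, 347 were called higher and 242 lower. Their median was 0.12. Beside these abundant genes, a smaller part of the members was called higher and a larger part lower. With FPKM and limma the count of members called higher was 11 of 78 at a pseudocount of 1 and 4 of 78 at 0.1. The median of the members was -1.07 with a mitosis minimum of 50 CPM in the selection and -0.27 with 200 CPM. A rise of at least 2-fold was called for 2 members, against 7.70% of all genes. A fall of at least 4-fold was called for 24 members, against 5.57% of all genes. The libraries of the forms did not overlap in CPM, with the haploid higher, for 17 members, and with the haploid lower for 55, against 24.5% and 29.3% of all genes.

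The 31 members below -1.5 were picked by the same fold change, so their calls and their lower share of counts add nothing to it. On the other side of this line, 17 of the 48 were called higher and 23 lower. The 8 that were not called had fold changes from -0.04 to 0.10, with adjusted p from 0.0755 to 0.72 (edgeR).

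**Figure D3:**
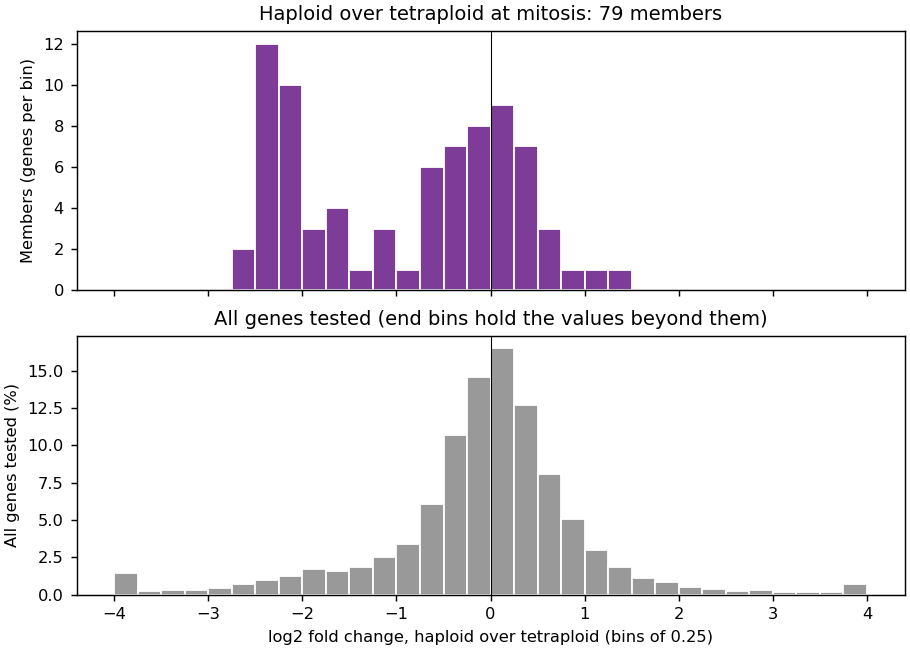
Distribution of the log2 fold change of haploid over tetraploid at mitosis in bins of 0.25, for the 79 members (number of genes, upper panel) and for the 51860 genes tested (percent, lower panel; the end bins also hold values beyond them). The members form a group between -2.54 and -1.57 and a broader group around 0, while all genes tested have a single peak at 0.

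The members that fell most in the haploid at mitosis were BcaC07g36994 on chromosome C07 and BcaC04g19462 on C04. BcaC07g36994 had 162, 157 and 165 CPM in the haploid libraries, against 970, 967 and 957 CPM in the tetraploid libraries. Each form kept to a narrow band and the bands were far apart (log2 fold change -2.54, SE 0.06, adjusted p = 2.2e-28, edgeR), so the level in the haploid was 0.172 of that in the tetraploid. BcaC04g19462 had 163, 155 and 149 CPM in the haploid, against 942, 916 and 920 CPM in the tetraploid. This gene had 0 counts in all 6 meiosis libraries, and its fall was of the same size (-2.53, SE 0.04, adjusted p = 2.74e-28, edgeR).

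The members that rose most in the haploid at mitosis were BcaB08g34501 and BcaB08g36784, both on chromosome B08. BcaB08g34501 had 486, 531 and 485 CPM in the haploid libraries, against 188, 194 and 180.1 CPM in the tetraploid libraries. All haploid values were above all tetraploid values, and the gene was 2.74-fold higher in the haploid (log2 fold change 1.46, SE 0.05, adjusted p = 4.09e-22, edgeR). BcaB08g36784 had 426, 433 and 414 CPM in the haploid, against 206, 217 and 212 CPM in the tetraploid, with no overlap (1.04, SE 0.05, adjusted p = 1.93e-19, edgeR). These were the 2 members called higher by at least 2-fold.

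The most abundant members were compared per length. On the deposited FPKM scale, which divides by gene length and depth, BcaC06g32427 and BcaC06g32487, both on chromosome C06, had the highest mean level over the mitosis libraries. BcaC06g32427 had 5104, 5084 and 5677 FPKM in the haploid libraries, against 5157, 5186 and 5609 FPKM in the tetraploid libraries. The forms overlapped in this gene and it was not called (log2 fold change 0.04, SE 0.04, adjusted p = 0.469, edgeR on counts). BcaC06g32487 had 3417, 3364 and 3467 FPKM in the haploid, against 3734, 3736 and 3866 FPKM in the tetraploid. The haploid libraries were all lower here, by a small amount that was called (-0.09, SE 0.04, adjusted p = 0.0317, edgeR on counts). The call was lost without haploid mitosis replicate 1 (adjusted p = 0.0918, edgeR), without haploid mitosis replicate 2 (adjusted p = 0.0849, edgeR), without tetraploid mitosis replicate 3 (adjusted p = 0.163, edgeR), with C03 genes left out (adjusted p = 0.121, edgeR) and with FPKM at a pseudocount of 0.1 (adjusted p = 0.66, limma).

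Among all members, mean FPKM at mitosis had a median of 174 in haploid and 395 in tetraploid anthers. The 31 members with the large deficit had median levels of 88.0 FPKM in haploid and 482 FPKM in tetraploid anthers. In the 48 others the medians were 343 FPKM in haploid and 388 FPKM in tetraploid anthers. In CPM, the 31 averaged between 104 and 509 in haploid anthers and between 408 and 2717 in tetraploid anthers. The 48 others averaged between 116 and 1677 CPM in haploid and between 107 and 2424 CPM in tetraploid anthers. The selection bears on these ranges, because a gene with a deficit of this size reached 100 CPM in the haploid only where its level in the tetraploid was several times that.

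Levels of the members were ordered very similarly in libraries of one form and much less so between forms. Across the 79 genes, log2 CPM had Pearson's r of 0.996 to 0.999 between libraries of a form at mitosis. Between the haploid mean and the tetraploid mean it was 0.531 (Spearman's rho 0.506), across genes that all lie above 100 CPM and are not independent replicates. The spread between replicates was small in both forms. The coefficient of variation of a member over 3 libraries had a median of 3.41% in haploid and 2.93% in tetraploid anthers, with highest values of 12.5% and 13.5%. In 688 other admitted genes with at least 100 CPM in each mitosis library, the medians were lower, at 2.57% and 2.54%. The highest values of those genes were 47.0% and 21.5%.

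Position was read from the gene IDs. The B subgenome held 38 members and the C subgenome 41, which is 0.102% and 0.0879% of the genes that the selection admits there. Members lay on 15 of the 16 chromosomes admitted, with 15 on C06, 11 on B03, 8 on B07 and 0 of 4849 genes on C08. The 31 members with the large deficit comprised 13 on B and 18 on C chromosomes and were spread over 14 chromosomes. On C06, 4 of the 15 members were among them, and on B03 it was 3 of 11. On C09 both members were among them, and on B05 it was 0 of 4. Members on B chromosomes held 41.5%, 41.8% and 41.5% of the members' counts in the haploid libraries, against 42.4%, 42.7% and 42.6% in the tetraploid libraries, a small difference without overlap.

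Some members were close neighbours. Within 5 gene numbers of another member lay 22 of the 79, in 8 runs of 2 to 4 genes, and 17 members were directly next to another. Of all 767 admitted genes with at least 100 CPM in each mitosis library, 146 (19.0%) had another such gene within 5 numbers, against 27.8% of the members within their own, smaller set. Of these 22 members, 2 belonged to the 31 with the large deficit and 20 to the 48 others. Neighbours that are not members were left out of this count. A set of 124 genes met the same meiosis limit and reached 100 CPM in all tetraploid but not all haploid mitosis libraries. Of these 124, 120 had a fold change below -1.5, and 27 (21.8%) lay in runs of their own. In the run of 4 on B03 (gene numbers 11948 to 11951), fold changes ran from -0.46 to 0.44. A run of 4 on C06 (32423 to 32428) ran from -0.50 to 0.18, with 3 of its members above 0. The pair on B04 (20550 and 20551) stood at 0.33 and 0.39, and the pair on B07 (32026 and 32027) at -0.21 and -0.20. The 1 run with the large deficit, a pair on C06 (30894 and 30897), fell at least 4-fold in both genes, with fold changes that differed by 0.00121. Neighbouring copies can be alike in sequence, and how reads that match several copies were counted is not stated in the labels, so levels within a run may be shared out between its genes.

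**Figure D4:**
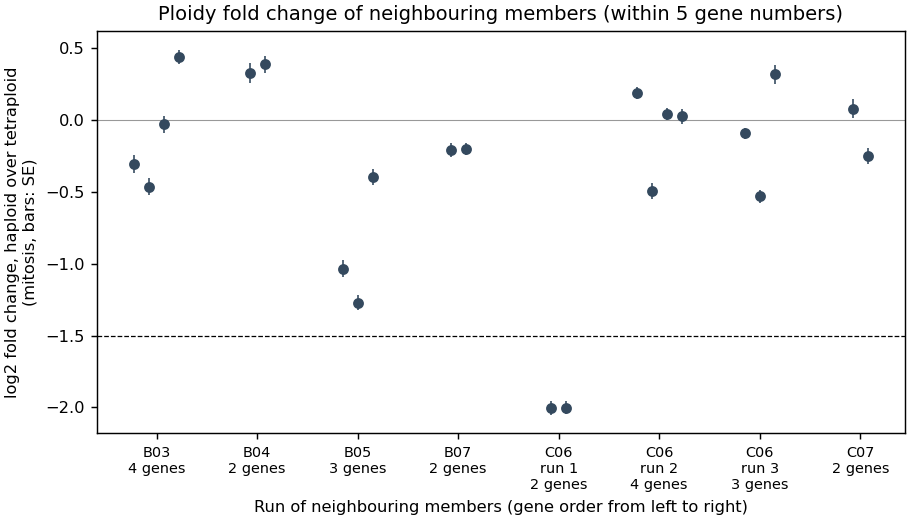
Log2 fold change of haploid over tetraploid at mitosis, with its SE, for the 22 members that lie within 5 gene numbers of another member, grouped by run and ordered by gene number within a run. The pair of the first C06 run lies below the dashed line at -1.5, and the other 7 runs lie above it.

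Within the selection, members with the large deficit were mostly longer genes. The minimum of 100 CPM is not corrected for length, and its bearing on this was not tested. A length per gene was computed from its counts, the library total and the deposited FPKM, for genes with an FPKM above 0 in all 6 mitosis libraries, which gave 78 members a value. It varied little between libraries, with a median coefficient of variation of 1.21% and 2 members above 10%. That small variation does not show that the computed value is the true length. Values ran from 239 to 4119 bases in the members, but from 1.28 to 776365 over all genes tested. The value therefore cannot be the true length of every gene in the sets compared below. Members with the large deficit had a median length of 1812 bases (quartiles 1367 and 1999, n = 30), and the others 839 bases (quartiles 576 and 1419, n = 48). Of 32 members under 1000 bases, 2 had the large deficit, and of 46 members of at least 1000 bases, 28 had it. The median log2 fold change was -0.16 below 1000 bases and -1.99 from 1000 bases on. Across the 78 members, fold change and log2 length had Pearson's r of -0.461, and fold change and length had Spearman's rho of -0.395, with all members sharing the same 6 libraries.

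In other sets, shorter and longer genes had medians closer to each other. Among 688 other admitted genes with at least 100 CPM in each mitosis library, the median was 0.20 for 206 genes below 1000 bases and 0.05 for 482 longer ones. Over all genes tested with a length, it was -0.03 for 18154 shorter and 0.04 for 26904 longer genes. Among 319 genes with a length that met the same limit at meiosis and reached at least 10 CPM, but not the member level, at mitosis, it was -1.91 for 152 shorter and -1.84 for 167 longer genes. A further set met this meiosis limit and reached 100 CPM in all tetraploid but not all haploid mitosis libraries. In its 123 genes with a length, the median was -2.17 for 65 shorter and -2.14 for 58 longer genes. Below -1.5 lay 62 of the shorter and 57 of the longer genes, and the median length of this set was 912 bases. The difference between the members and these sets was not tested, and the 1000-base line was chosen after the values were seen.

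**Figure D5:**
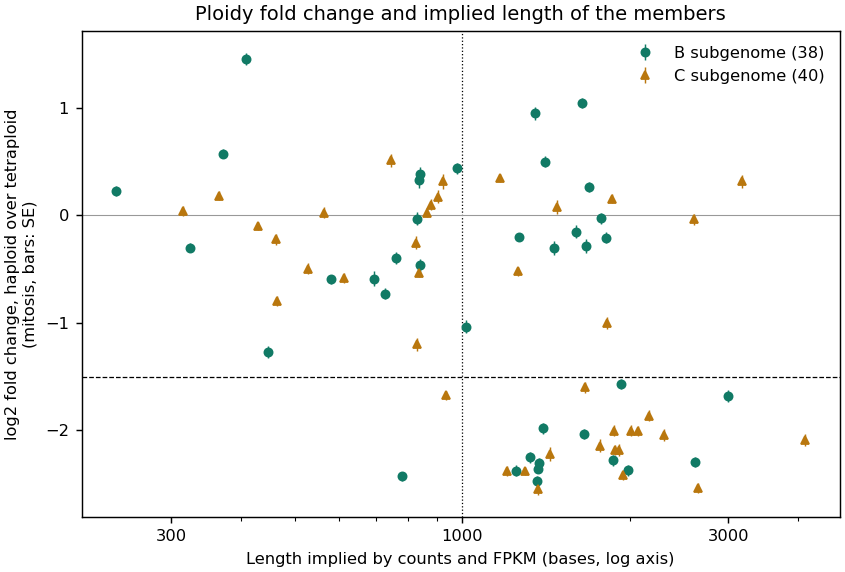
Log2 fold change of haploid over tetraploid at mitosis (with SE) against the length implied by counts and FPKM (bases, log axis) for 78 members, with B genes as circles and C genes as triangles. Below the dashed line at -1.5 lie 2 of the 32 members shorter than 1000 bases (dotted line) and 28 of the 46 longer ones.

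Genes just beyond the selection give its edges. The lowest mitosis value of any member was 101 CPM, and the nearest gene left out for its mitosis level reached 98.9 CPM in its lowest library. At meiosis the highest value of any member was 0.96 CPM, and the nearest gene left out for its meiosis level had 1.07 CPM. Of the genes with the same meiosis limit, 124 reached 100 CPM in all 3 tetraploid mitosis libraries but not in all haploid ones, and 3 did so in the haploid but not in the tetraploid. The 124 had a median fold change of -2.15, and 120 of them lay below -1.5. The 321 genes with at least 10 CPM in all 6 mitosis libraries that were not members had a median of -1.86, and 218 of them lay below -1.5. These sets were themselves chosen by level, so their fold changes describe them and test nothing.

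At meiosis only traces of the members were counted. The haploid libraries had 133, 164 and 170 reads over all 79 genes, and the tetraploid libraries had 198, 176 and 175. The haploid libraries were all lower, with 31, 40 and 36 members showing any read, against 48, 53 and 50 in the tetraploid libraries. Without the reads of 1 member, BcaB03g11950, the read totals of the forms would overlap. It had 0 reads in each haploid library and 14, 8 and 9 in the tetraploid libraries. In all 6 libraries 5 members had 0 counts, and a count of 0 allows up to 3 counts per library, or 0.179 to 0.190 CPM. The 31 members with the large deficit at mitosis had 109 reads over the haploid meiosis libraries and 205 over the tetraploid ones. The other 48 had 358 reads in haploid and 344 in tetraploid libraries. These limits reflect counting error alone, because the reads carry no molecular identifiers.

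The same test at meiosis called 5 members higher and 15 lower in the haploid, where 19.5% of all genes tested were called higher and 18.8% lower. Nothing is read from these shares, because the selection caps the members at meiosis and they passed the filter on low counts through their mitosis libraries. In a fit on the 6 meiosis libraries alone, 1 member passed the filter and 0 were called in either direction. Of the 15, 13 had 0 counts in the haploid, with 4 to 31 reads summed over the tetraploid libraries. With all 12 libraries the count called lower was 7 with DESeq2 and 9 without a filter. It also depends on single libraries, with 5 members without haploid meiosis replicate 1, 8 without haploid meiosis replicate 2, and 9 each without haploid meiosis replicate 3, tetraploid meiosis replicate 1 or tetraploid meiosis replicate 2.

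None of the 4 genes named here for meiosis passed the filter in the fit on that stage alone. They entered the test at meiosis through their mitosis libraries. Their calls hold only within the fit over all libraries, are listed as description and support no result. Among members with at least 10 reads in the higher form at meiosis, BcaB03g11950 on B03 fell and BcaB04g20550 on B04 rose in the haploid. BcaB03g11950 had 0, 0 and 0 reads in the haploid libraries, against 14, 8 and 9 in the tetraploid libraries (at least 3.42-fold lower, against a floor of 3 counts per library, adjusted p = 1.16e-06, edgeR). At mitosis this gene averaged 138 ± 4.81 CPM in haploid and 145 ± 11.9 CPM in tetraploid anthers (SD, n = 3 each), and it was not called there (adjusted p = 0.696, edgeR). BcaB04g20550 had 11, 1 and 1 reads in the haploid, against 0 in each tetraploid library. Its call (adjusted p = 0.00606, edgeR) rests on haploid meiosis replicate 1, without which it was lost (adjusted p = 0.155, edgeR).

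All genes named for meiosis had fold changes of the same sign at both stages, but this did not hold for every member called there. Of the 5 members called higher at meiosis, 2 were called higher and 2 lower at mitosis. Of the 15 called lower at meiosis, 12 were called lower and 1 higher at mitosis. That of BcaB03g11950 at mitosis was -0.03 and was not called. BcaB04g20550 was called higher in the haploid at mitosis too (log2 fold change 0.33, SE 0.07, adjusted p = 0.000203, edgeR). BcaB02g10363 on B02 had 6, 16 and 15 reads in the haploid, against 0, 3 and 3 in the tetraploid, with no overlap (log2 fold change 2.56, SE 0.50, adjusted p = 9.16e-05, edgeR). At mitosis it had 205, 198 and 198 CPM in the haploid, against 104, 111 and 105 CPM in the tetraploid (0.95, SE 0.06, adjusted p = 2.29e-15, edgeR). BcaB06g26707 on B06 had 4, 7 and 1 reads in the haploid, against 10, 10 and 9 in the tetraploid (-1.23, SE 0.35, adjusted p = 0.0232, edgeR). At mitosis it had 302, 297 and 296 CPM in the haploid, against 1663, 1654 and 1632 CPM in the tetraploid (-2.43, SE 0.04, adjusted p = 2.2e-31, edgeR). The meiosis call of BcaB06g26707 was lost without haploid meiosis replicate 1 (adjusted p = 0.0564, edgeR), haploid meiosis replicate 3 (0.204), tetraploid meiosis replicate 1 (0.0519) or tetraploid meiosis replicate 2 (0.0515).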

How the data were processed

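RNA-seq libraries of anthers (12, in 4 groups of 3) were analysed from 2 tables of 97149 genes. Read counts were deposited as whole numbers without normalisation, as the values show. The deposited FPKM table was made by the authors with a tool not given in the sources used here. The submitters' processing notes name featureCounts 2.0.1, TopHat2, Bowtie2 2.2.3 and HISAT2 2.1.0, without roles. Neither build, annotation nor strand setting is stated there. CPM used column totals. Libraries of a group had Pearson's r of 0.993 to 0.994 (log2(CPM + 1)), and the mean chi-square per gene with at least 20 counts in a pair was 2.52 to 3.08, so no pair agreed within sampling noise.

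Tests used edgeR 4.0.16 in R 4.3.3 (TMM factors, default low-count filter, a mean per group, two-sided quasi-likelihood test). The test was also run on simulated counts with the same spread for all genes, no stage effect and changes only in well-counted genes. That run does not bear on the few reads of the members at meiosis. SE was obtained from the fold change and its F statistic. Alternatives used DESeq2 1.42.0 and limma 3.58.1 (log2 of FPKM plus a pseudocount of 1 or 0.1, genes with at least 0.5 FPKM in 3 libraries). Members and lists were chosen with earlier results of these data known. Named genes were, of the members, the 2 highest by mean mitosis FPKM, the 2 with the largest called fold change in each direction at mitosis without overlap, and likewise at meiosis with at least 10 reads in the higher form. No gene list could be matched to the IDs.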

Additional observations from a re-analysis of the deposited data

How the results depend on the processing

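At mitosis the members called lower in the haploid numbered 54 and those called higher 17. Without 1 mitosis library at a time they numbered 52 to 54 and 16 to 17, with a median log2 fold change of -0.60 to -0.56, and the shares of counts were 3.08% to 3.13% in the haploid and 5.80% to 5.89% in the tetraploid. With FPKM and limma-trend 11 members were called higher and 50 lower at a pseudocount of 1, and 4 and 37 at 0.1. The median was -0.62 with median-of-ratios size factors and with DESeq2. Shares of summed FPKM were 3.67% in haploid and 5.46% in tetraploid libraries.

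Other limits of the selection change the set itself. A mitosis minimum of 50 CPM gave 126 members, 26 called higher and 88 lower at mitosis, a median of -1.07 and shares of 3.50% in haploid and 6.96% in tetraploid libraries, with 9 called higher at meiosis. At 200 CPM there were 42 members, 11 higher and 26 lower, a median of -0.27 and haploid and tetraploid shares of 2.52% and 4.16%, with 2 higher and 9 lower at meiosis. A meiosis ceiling of 0.5 CPM gave 11 higher at mitosis, a median of -0.76, haploid and tetraploid shares of 2.53% and 4.90%, and 0 called higher at meiosis. A ceiling of 2 CPM gave a median of -0.52, haploid and tetraploid shares of 3.66% and 6.48%, and 10 higher at meiosis. TMM-scaled CPM gave a tetraploid share of 5.95%.

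At meiosis 5 members were called higher and 15 lower, on few reads. Without 1 meiosis library they numbered 4 to 6 and 5 to 12. Called lower were 9 without a filter, 9 with C03 genes left out, 7 with DESeq2 and 7 with FPKM at a pseudocount of 1. At a pseudocount of 0.1, 11 were called higher. A fit on the 6 meiosis libraries alone left 1 member above its filter and called 0 higher and 0 lower. Replicate numbers did not pair the libraries, with correlations of deviations from -0.02 to 0.01 and not every library closest to its own number, and the fit with a replicate block called 17 higher and 54 lower at mitosis, and 6 and 10 at meiosis. The cause of these shifts was not tested. The selection itself keeps every member at 16 reads or fewer in each meiosis library.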

Other observations

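One member stood apart between the tables and was singled out after its values were seen. BcaC02g10098 on C02 had 246, 241 and 270 CPM in the haploid mitosis libraries, against 882, 922 and 919 CPM in the tetraploid ones (log2 fold change -1.81, SE 0.05, adjusted p = 3.26e-25, edgeR). In the FPKM table its highest value at mitosis was 0.0531, while every other member reached at least 56.6 in its highest mitosis library. The 11 genes that met both limits but were left out by their ID had log2 fold changes of haploid over tetraploid at mitosis from -0.15 to 0.58 in the 5 unplaced genes, where 4 were called higher and 1 lower. They ran from -0.08 to 0.26 in the 2 on C03, where 1 was called higher, and from -0.31 to -0.03 in the 4 of the B01 run, where 3 were called lower (edgeR, adjusted p under 0.05).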
